A study of Homo sapiens with 5 samples.

Results

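The genes described here encode the guidance cues and receptors of the ephrin, semaphorin and Slit families. They were taken by symbol: every gene whose name starts with EPHA, EPHB, EFNA, EFNB, SEMA, PLXN, SLIT or ROBO followed by a letter or digit, without the SLITRK genes, together with the neuropilins NRP1 and NRP2. This gave 59 of the 18724 genes with a probe of their own in the series, 58 in each of its 2 value tables and 57 in both. SEMA4C had such a probe in the first table only and SLIT1 in the second only. The receptor gene EPHB2 had none in either table and is not covered.

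Ephrins are ligands that stay anchored to the cell surface, by a lipid anchor in the A class and by a transmembrane stretch in the B class, and they bind Eph receptor tyrosine kinases on the neighbouring cell. Both sides can signal, and in epithelia these contacts help to sort cells, hold boundaries and set adhesion. Semaphorins are secreted or membrane-bound ligands of the plexins, with the neuropilins as co-receptors for most secreted class 3 members, and plexins act on small GTPases and the cytoskeleton. Slits are secreted ligands of Robo receptors. All of these families are best known from axon guidance and are also active in breast epithelium, in blood vessels and in migrating cells.

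The cells were MCF12A, a cell line of human breast epithelium that does not form tumours, and their RNA was read on 5 Affymetrix Gene ST arrays. The first table holds 1 array of an untreated culture, 1 of cells held for 4 weeks in 2.5% ethanol and 1 of cells held for 4 weeks in 1% acetaldehyde, the first product of ethanol oxidation. In the second table, 1 array came from a single clone that had been picked from soft agar, where only cells that need no anchorage grow, after ethanol exposure and had been returned to a monolayer, and 1 came from its own control. All cultures grew as a monolayer in the same medium with horse serum, epidermal growth factor, hydrocortisone, insulin and cholera toxin. The labels give the ethanol of the clone in percent in one place and in mM in another, and its control is tagged as untreated but also with soft agar, so no dose is set beside the clone. The comparisons ask how these genes differ after ethanol, after acetaldehyde and in the anchorage-independent clone.

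With 1 array per group there is no replicate check of any difference and no test, and precision is limited by the number of arrays. The values are intensities on a linear scale, with array medians of 69.98 to 70.61 in the first table, and of 89.9 and 94.0 in the second. The 2 tables belong to different array designs and were treated as normalised separately, so each gene is compared only within a table. A gene counted as measurable when its highest array in a table reached the median of that table, an intensity of 70.2 in the first and 92.0 in the second, called the floor here. It is not a measured background. Among 58 guidance genes of the first table, 18 had the same value on all 3 arrays, 6 of them past the floor, or 16.2% of the guidance genes past the floor against 26.0% of all genes past it. So many equal values are unusual for RMA, no source used here accounts for them, and they pull medians of that table toward 0. The epithelial label was borne out in both controls, where the basal keratin KRT5 had intensities of 6056 and 12956 and E-cadherin, CDH1, 1114 and 920. CDH1 was 117 in ethanol, 1262 in acetaldehyde and 43.6, under the floor, in the clone. In bulk RNA, fewer cells of a type and less RNA per cell cannot be told apart.

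Guidance genes went both ways in the ethanol culture and in the clone. By the deposited values, the ephrin genes EFNA3 and EFNB1 and the receptor genes EPHA1, EPHB3 and NRP2 passed 2-fold downward in both. EFNB2, SEMA3C and PLXND1 passed it upward in both. Of these calls, NRP2 in the clone was borderline, with a value under the floor and at least 1.15-fold lower against it. EFNB2 was borderline in both, 2.002-fold higher in ethanol and 2.06-fold in the clone. Of 37 guidance genes past the floor in the first table, 3 were at least 2-fold higher in ethanol, where 2.63% of all 11273 genes past the floor were, and 5 were at least 2-fold lower, against 2.46%. Taken in either direction this is 21.6% of the guidance genes and 5.08% of all genes. Equal ethanol and control values, which cannot pass 2-fold, made up 18.9% of these guidance genes and 30.7% of all genes past the floor. In acetaldehyde 1 of the 37 was at least 2-fold higher, against 1.04% of all genes, and 0 were lower, against 0.0532%. In the clone 6 of 40 guidance genes past the floor were at least 2-fold higher than its control, against 14.7% of 12262 genes, and 7 were lower, against 5.84%. In either direction that is 32.5% of the guidance genes and 20.6% of all genes. The share of higher guidance genes in the clone was thus close to that of all genes, at 6 of 40. The median log2 difference of the guidance genes past the floor was 0.00 in ethanol and 0.00 in acetaldehyde, as over all genes. In the clone it was -0.24, where all genes had -0.02, a gap that did not hold without the floor or with a higher one. In all, 13 guidance genes passed 2-fold in at least 1 comparison, 29 were past the floor without doing so, and 17 never reached it.

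**Figure D1:**
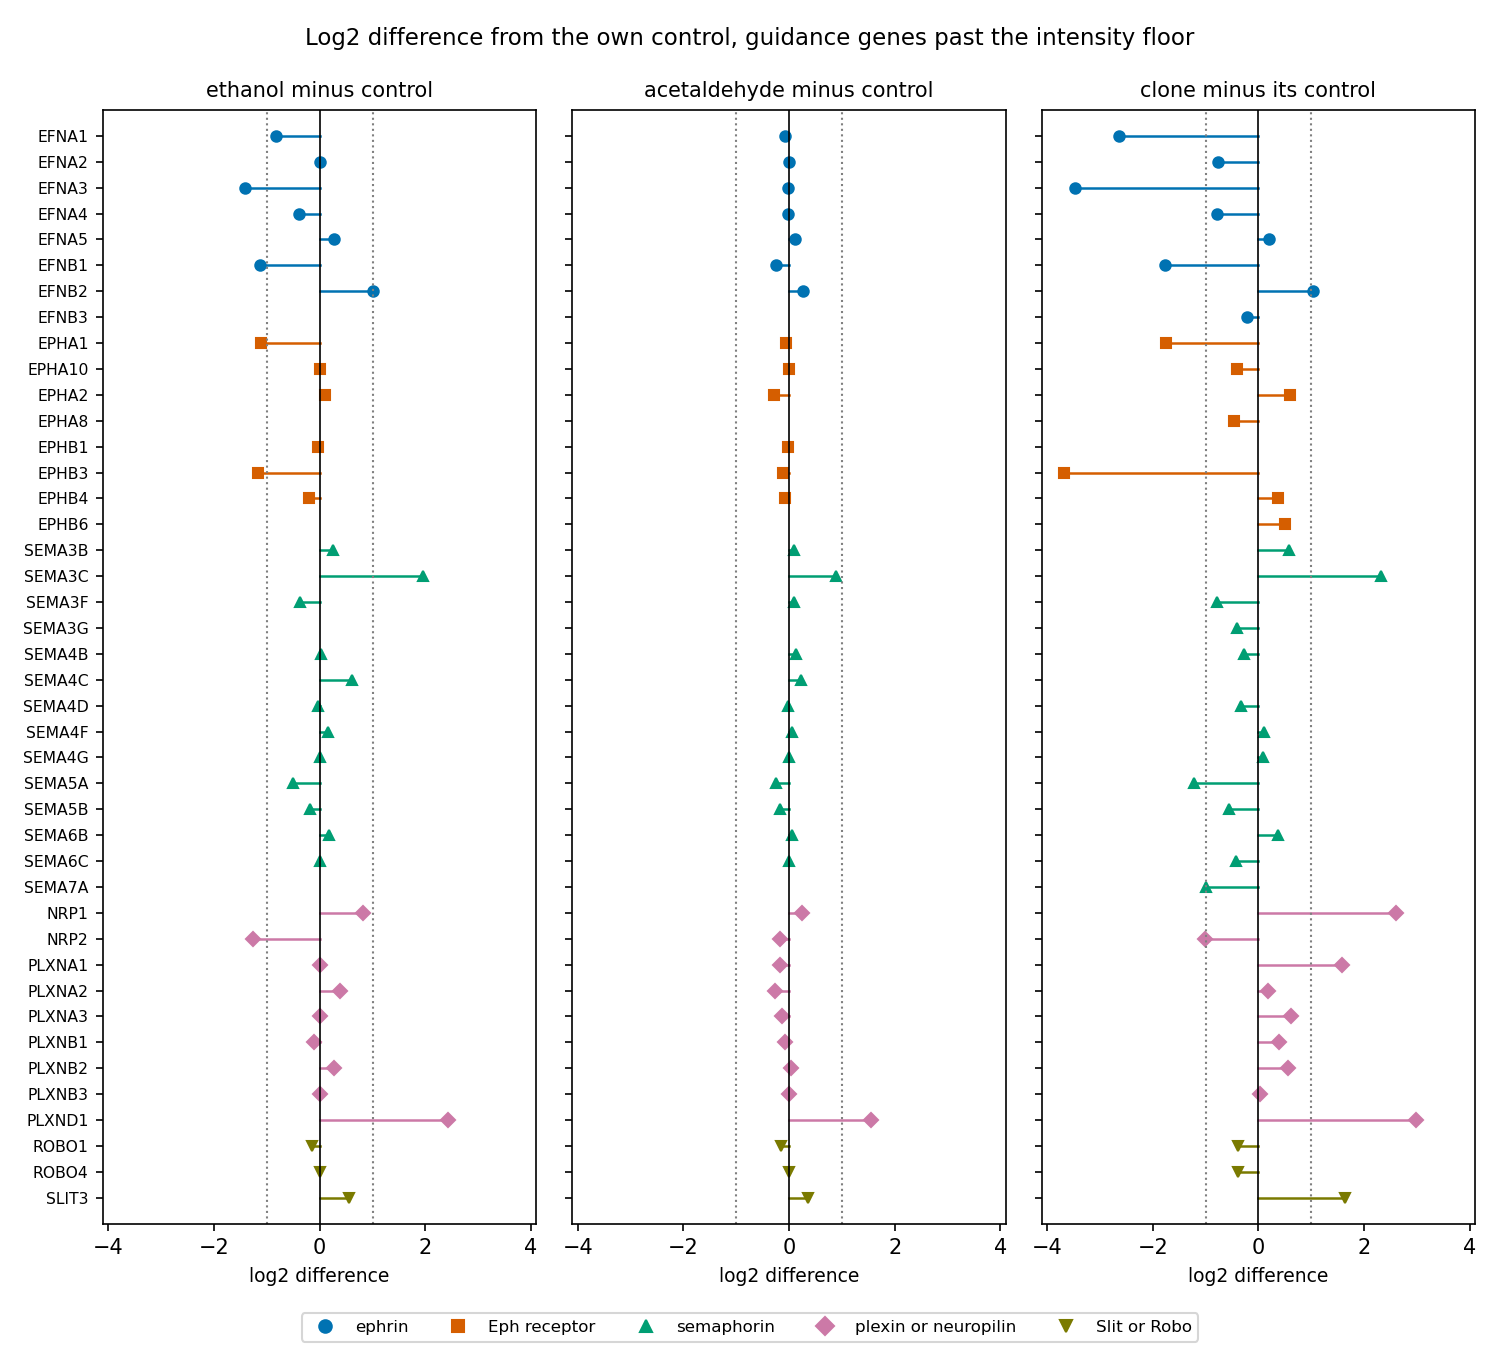
Log2 difference from the own control (horizontal axis) for each guidance gene past the floor of the table, 37 genes in the first and second panels and 40 in the third, 1 array against 1 array, with marker shape and colour for the family and dotted lines at 2-fold. Acetaldehyde differences lie near 0 except for PLXND1 at 1.56 and SEMA3C at 0.89, while those of the clone run from -3.68 for EPHB3 to 2.98 for PLXND1.

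Of the 8 ephrins, 7 were past the first floor, and in ethanol 1 was higher and 2 lower by 2-fold. All 8 were past the second floor, and in the clone 1 was higher and 3 lower. Over all genes past the floor, 2.63% were higher and 2.46% lower in ethanol, and 14.7% and 5.84% in the clone. The lower ephrins included neighbouring A-class ligand genes. EFNA3 had an intensity of 583 in the untreated culture, 219 in ethanol and 573 in acetaldehyde, and of 1733 in the clone's control and 156 in the clone. It was 2.66-fold lower in ethanol and 11.1-fold lower in the clone, with acetaldehyde close to control. EFNA1, a ligand of EPHA2 that is abundant in epithelia, read 216, 122 and 205 in the same order in the first table, a log2 difference of -0.82 in ethanol, and 877 and 141 in the second, 6.24-fold lower in the clone. EFNA4 read 243, 185 and 239, then 465 and 270, so that it had log2 differences of -0.40 in ethanol and -0.78 in the clone and stayed within 2-fold. EFNA4, EFNA3 and EFNA1 follow each other on chromosome 1 with 0 other coding genes between them in the RefSeq order. All of them were lowest in the ethanol array of the first table and lower in the clone than in its control. Lower than control by any amount were 3955 of 11273 genes past the floor in ethanol and 6231 of 12262 in the clone.

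The other A-class ligands differed less. EFNA5 had intensities of 674, 817 and 727 in the first table and of 959 and 1102 in the second, or log2 differences of 0.28 in ethanol and 0.20 in the clone. EFNA2 read 118 on all 3 arrays of the first table and 359 and 213 in the second, a log2 difference of -0.76 in the clone. Neither reached 2-fold in any comparison.

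The B-class ligands EFNB1 and EFNB2 went in opposite directions. EFNB1, the X-linked ligand of EphB receptors, read 354 in the untreated culture, 162 in ethanol and 300.3 in acetaldehyde, and 652 and 191 in the clone's control and the clone. It was 2.18-fold lower in ethanol and 3.40-fold lower in the clone. EFNB2, the ligand of EPHB4 that is known as a marker of arteries, read 340 in the untreated culture, 680 in ethanol and 408 in acetaldehyde, and 172 and 355 in the second table. It was 2.002-fold higher in ethanol and 2.06-fold higher in the clone, at the edge of the count: with quantile normalisation applied again, or with 16 added to every intensity, it no longer passed 2-fold in either comparison.

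Of the 13 Eph receptors with a probe of their own, 6 were past the first floor and 7 past the second. In ethanol and in the clone 2 were lower and 0 higher by 2-fold. Over all genes past the floor, 2.46% were lower and 2.63% higher in ethanol, and 5.84% and 14.7% in the clone. EPHB3, a receptor of B-class ephrins, read 171 in the untreated culture, 75.9 in ethanol and 158 in acetaldehyde, and 1388 in the clone's control and 108 in the clone. It was 2.26-fold lower in ethanol, where it stood just above the floor, and 12.9-fold lower in the clone, with a log2 difference of -3.68 that was the lowest of all guidance genes. The 2 control arrays differ widely for this gene, 171 and 1388, but they sit on different array designs, so that culture and design cannot be told apart. EPHA1, an epithelial receptor of A-class ephrins, read 182, 84.1 and 175 in the first table, 2.16-fold lower in ethanol. In the second table EPHA1 read 255 in the control and 76.1 in the clone, which is under the floor, and was at least 2.77-fold lower when set against the floor.

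The 3 other Eph receptors past the floor in both tables stayed within 2-fold. EPHA2, the main receptor of EFNA1, read 429, 458 and 350 in the first table and 368 and 556 in the second, a log2 difference of 0.09 in ethanol and 0.60 in the clone. EPHB4, the receptor of EFNB2, read 426, 371 and 402, then 518 and 666, or -0.20 and 0.36. EPHA10, a receptor without kinase activity, read 89.6 on all 3 arrays of the first table and 301 and 226 in the second. Thus the ligand EFNA1 was lower in the clone while its receptor EPHA2 had a log2 difference above 0. The ligand EFNB2 was higher there while EPHB4 had 0.36. The receptors EPHA1 and EPHB3, by contrast, were lower in the clone, as were the ligands EFNA1, EFNA3 and EFNB1.

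**Figure D2:**
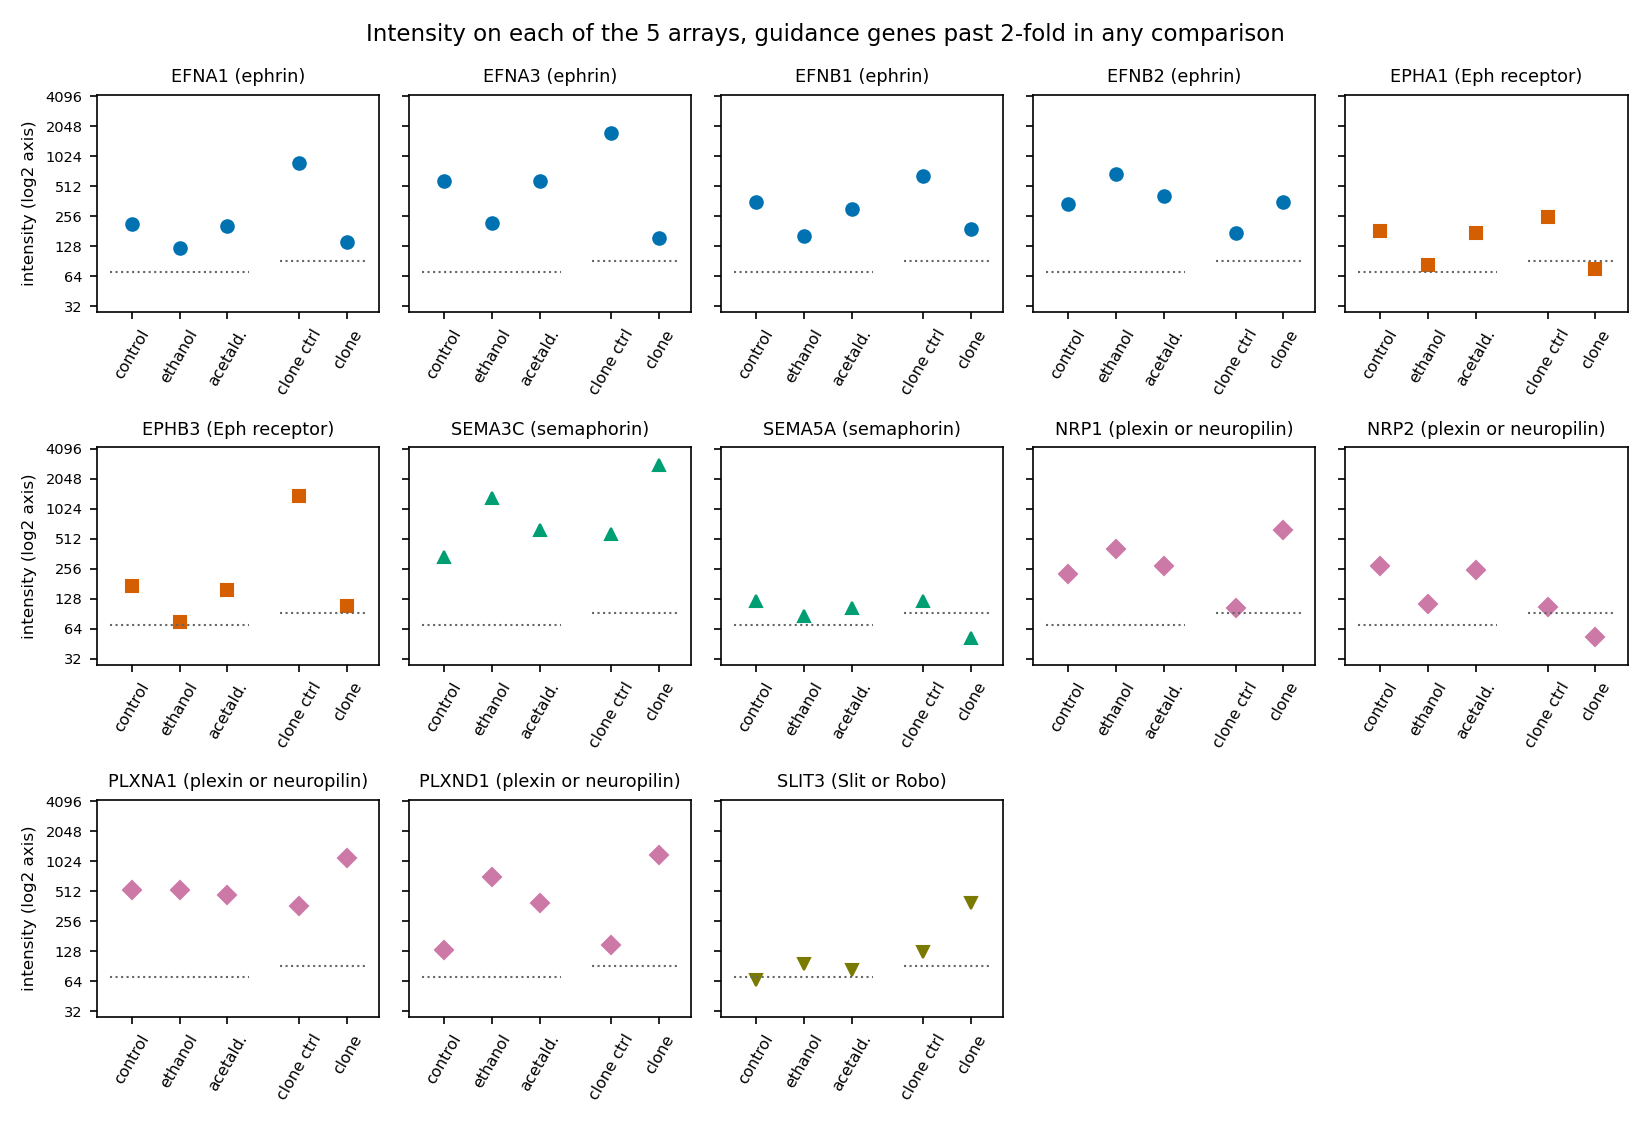
Intensity (vertical axis, log2 scale) on each of the 5 arrays for the 13 guidance genes past 2-fold in any comparison, 1 point per array, with the 3 arrays of the first table on the left of each panel, the 2 of the second on the right and the floor of each table as a dotted line. EFNA3 and EPHB3 are at 1733 and 1388 in the clone's control and at 156 and 108 in the clone, while SEMA3C goes from 567 to 2835 and PLXND1 from 150 to 1181, and heights of different genes or of the left and right arrays are not comparable.

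The sequence before the start of 3 of these genes is shown because they differed the same way in ethanol and in the clone, EPHA1 and EPHB3 downward and EFNB2 upward. Each line holds the 250 bases before the RefSeq start in GRCh38.p14, 5′ to 3′ on the strand of the gene, with any CAGGTG, or CACCTG as it reads from the other strand, in capitals. These are the letters of the E-box that repressors of the ZEB and SNAI families are known to bind. The windows are chr7:143408857-143409106 (minus strand) for EPHA1, chr3:184561535-184561784 (plus strand) for EPHB3 and chr13:106535663-106535912 (minus strand) for EFNB2.
EPHA1: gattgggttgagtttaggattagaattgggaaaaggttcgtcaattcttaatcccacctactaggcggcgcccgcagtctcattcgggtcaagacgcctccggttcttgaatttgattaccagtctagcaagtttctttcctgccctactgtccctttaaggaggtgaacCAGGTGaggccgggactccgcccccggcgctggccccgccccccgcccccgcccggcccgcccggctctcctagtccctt
EPHB3: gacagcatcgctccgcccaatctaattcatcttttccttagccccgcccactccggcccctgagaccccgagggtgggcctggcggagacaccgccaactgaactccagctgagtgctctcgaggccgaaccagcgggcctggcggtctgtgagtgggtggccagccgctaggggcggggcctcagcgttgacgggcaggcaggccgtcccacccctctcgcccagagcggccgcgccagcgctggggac
EFNB2: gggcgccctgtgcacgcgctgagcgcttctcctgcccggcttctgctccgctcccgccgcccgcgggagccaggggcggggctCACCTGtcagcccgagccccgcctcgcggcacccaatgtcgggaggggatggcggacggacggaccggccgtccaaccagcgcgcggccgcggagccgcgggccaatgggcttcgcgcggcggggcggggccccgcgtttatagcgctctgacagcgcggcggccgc
The motif starts 80 bases before the start of EPHA1 and 167 bases before that of EFNB2, a gene that was lower and a gene that was higher, and EPHB3 has none in the window. Searched on both strands in 300 bases around each start, it was present in 7231 of 35116 RefSeq promoters, or 20.6%. RefSeq windows were matched for 53 of the 59 guidance genes, and 15 of their 83 windows, 18.1%, held it. Of 13 windows from the 12 matched genes past 2-fold, 2 held it, or 15.4%. A match describes these letters only, and the share among guidance genes was near that of all promoters.

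Of the semaphorins, 12 were past the first floor and 13 past the second. In ethanol 1 was higher and 0 lower by 2-fold, against 2.63% and 2.46% of all genes past the floor. In the clone 1 was higher and 1 lower, against 14.7% and 5.84%. SEMA3C was past 2-fold upward in both. SEMA3C, a secreted class 3 ligand that binds neuropilins and plexins, read 335 in the untreated culture, 1306 in ethanol and 623 in acetaldehyde, and 567 and 2835 in the clone's control and the clone. It was 3.90-fold higher in ethanol and 4.998-fold higher in the clone, and its log2 difference in acetaldehyde was 0.89, between control and ethanol. SEMA5A, a transmembrane ligand with thrombospondin repeats, read 122, 86.4 and 103 in the first table, a log2 difference of -0.50 in ethanol. In the second table SEMA5A read 122 and 52.1, a log2 difference of -1.22 that passed 2-fold as deposited. Its clone value lies under the floor, and set against the floor it was at least 1.32-fold lower.

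The next semaphorins by signal gave small differences. SEMA3F, a class 3 ligand that acts through NRP2, read 294, 227 and 314 in the first table and 487 and 283 in the second, or -0.37 in ethanol and -0.78 in the clone. SEMA4B, a transmembrane member, read 226, 229 and 247, then 448 and 371. SEMA6B, also a transmembrane member, read 77.6, 87.6 and 81.0, then 193 and 250. SEMA7A, the member with a lipid anchor, was named after its values were seen because it lies just outside the count: it read 59.6 on all 3 arrays of the first table, under the floor, and 287 and 144 in the second, 1.99-fold lower in the clone. SEMA4C, named because it has values in the first table only, read 139, 211 and 162, a log2 difference of 0.60 in ethanol.

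Of the 11 plexins and neuropilins, 9 were past the floor in each table. In the clone 3 of the 9 were at least 2-fold higher and 1 lower, against 14.7% and 5.84% of all genes past the floor. PLXND1, a plexin that binds SEMA3E directly and other class 3 semaphorins with neuropilins, read 131 in the untreated culture, 707 in ethanol and 387 in acetaldehyde, and 150 and 1181 in the clone's control and the clone. It was 5.38-fold higher in ethanol, 2.95-fold higher in acetaldehyde and 7.88-fold higher in the clone, the highest log2 difference of any guidance gene in each of these comparisons. It was also the only guidance gene past 2-fold in acetaldehyde against control. The 250 bases before its RefSeq start, chr3:129606677-129606926 on the minus strand of GRCh38.p14, are shown for this gene because it was higher in all 3 comparisons with a control.
PLXND1: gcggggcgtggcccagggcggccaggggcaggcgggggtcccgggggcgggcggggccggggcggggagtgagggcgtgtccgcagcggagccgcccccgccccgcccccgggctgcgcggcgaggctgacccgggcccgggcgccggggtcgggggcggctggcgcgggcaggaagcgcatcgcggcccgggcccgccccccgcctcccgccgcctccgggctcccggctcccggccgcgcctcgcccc
The window holds no E-box letters of the kind searched above. Over the 300 bases around the start 87.3% are G or C, against a median of 64.7% for guidance genes and 58.7% for all promoters. Some guidance genes that stayed within 2-fold came close to this, such as EFNA2 with 85.3% and PLXNA3 with 83.3%.

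NRP1 and NRP2, the co-receptors for secreted semaphorins, differed in opposite directions. NRP1, which also binds VEGF, read 229 in the untreated culture, 405 in ethanol and 270.3 in acetaldehyde, a log2 difference of 0.82 in ethanol, and 105 and 633 in the second table, 6.04-fold higher in the clone. NRP2 read 276, 115 and 246 in the first table and was 2.40-fold lower in ethanol. In the second table NRP2 read 106 in the control and 52.9 in the clone, a log2 difference of -1.004 from a control just above the floor, and at least 1.15-fold lower against the floor. A further NRP2 probe, dimmer on average, gave -1.68 in ethanol and -1.02 in the clone, so both probes were lower in both. The clone's NRP2 was under 2-fold when differences were centred on the median of all probes, when quantile normalisation was repeated, when 16 was added to every intensity or when dim values were raised to the floor. With the gene's probes averaged, or with the floor at the 60th percentile, its fold stayed past 2 and the gene fell under the floor.

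Of the plexins, PLXNA1, a receptor for class 3 semaphorins with neuropilins, read 530, 529 and 471 in the first table and 368 and 1096 in the second. It was 2.97-fold higher in the clone and level with control in ethanol. PLXNB2, a receptor of class 4 semaphorins, read 804, 970.0 and 824, then 1176 and 1724, or log2 differences of 0.27 in ethanol and 0.55 in the clone. PLXNA2 read 364, 473 and 301, then 126 and 142, so it stood above control in ethanol and below it in acetaldehyde, by 0.38 and -0.27. PLXNB1, the receptor of SEMA4D, read 177, 165 and 167, then 277 and 362, or -0.10 in ethanol and 0.39 in the clone.

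Of the Slits and Robos 3 were past the floor in each table, and 1 of them passed 2-fold, in the clone, where 20.6% of all genes did. SLIT3, a secreted ligand, read 65.8 in the untreated culture, 96.6 in ethanol and 84.2 in acetaldehyde, values around the floor, with a log2 difference of 0.55 in ethanol. In the second table SLIT3 read 125 in the control and 390.0 in the clone, 3.12-fold higher. ROBO1, a Slit receptor, read 164, 148 and 148, then 147 and 112, or -0.15 in ethanol and -0.39 in the clone. ROBO4, known from endothelium, read 77.3 on all 3 arrays of the first table and 149 and 114 in the second. Neither receptor was near 2-fold while the ligand SLIT3 was higher in the clone.

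The 17 guidance genes under the floor in both tables were EPHA3, EPHA4, EPHA5, EPHA6, EPHA7, PLXNA4, PLXNC1, ROBO2, ROBO3, SEMA3A, SEMA3D, SEMA3E, SEMA4A, SEMA6A, SEMA6D, SLIT1 and SLIT2, with SLIT1 read in the second table only. Their intensities ran from 13.8 to 67.9 in the first table and from 13.1 to 89.7 in the second. They include SEMA3E, the direct ligand of PLXND1, at 21.7 on all 3 arrays of the first table and at 42.2 and 23.9 in the second.

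The ethanol comparison and the clone comparison share no array. All 3 guidance genes at least 2-fold higher in ethanol, EFNB2, PLXND1 and SEMA3C, passed 2-fold upward in the clone too, and make up 3 of its 6. All 5 lower in ethanol, EFNA3, EFNB1, EPHA1, EPHB3 and NRP2, were likewise lower in the clone, and make up 5 of its 7. In the clone EFNB2 and NRP2 were at the edge of the count. Over all genes past the floor in both tables, 229 of 279 genes higher in ethanol, 82.1%, were also higher in the clone, where they make up 13.7% of 1676. For the lower genes, 196 of 247, 79.4%, were also lower in the clone, where they make up 30.2% of 650. Genes past 2-fold in ethanol thus mostly recurred in the clone in both sets, whereas their part of the clone's genes was unlike. The clone added NRP1, PLXNA1 and SLIT3 on the higher side and EFNA1 and SEMA5A on the lower side. In ethanol their log2 differences were 0.82 for NRP1, 0.55 for SLIT3, -0.82 for EFNA1 and -0.50 for SEMA5A, and PLXNA1 was level. The SLIT3 values lay around the floor there. How often all genes added by the clone keep their sign in ethanol was not computed. The clone had also been exposed to ethanol, so exposure and selection in soft agar cannot be told apart in it.

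**Figure D3:**
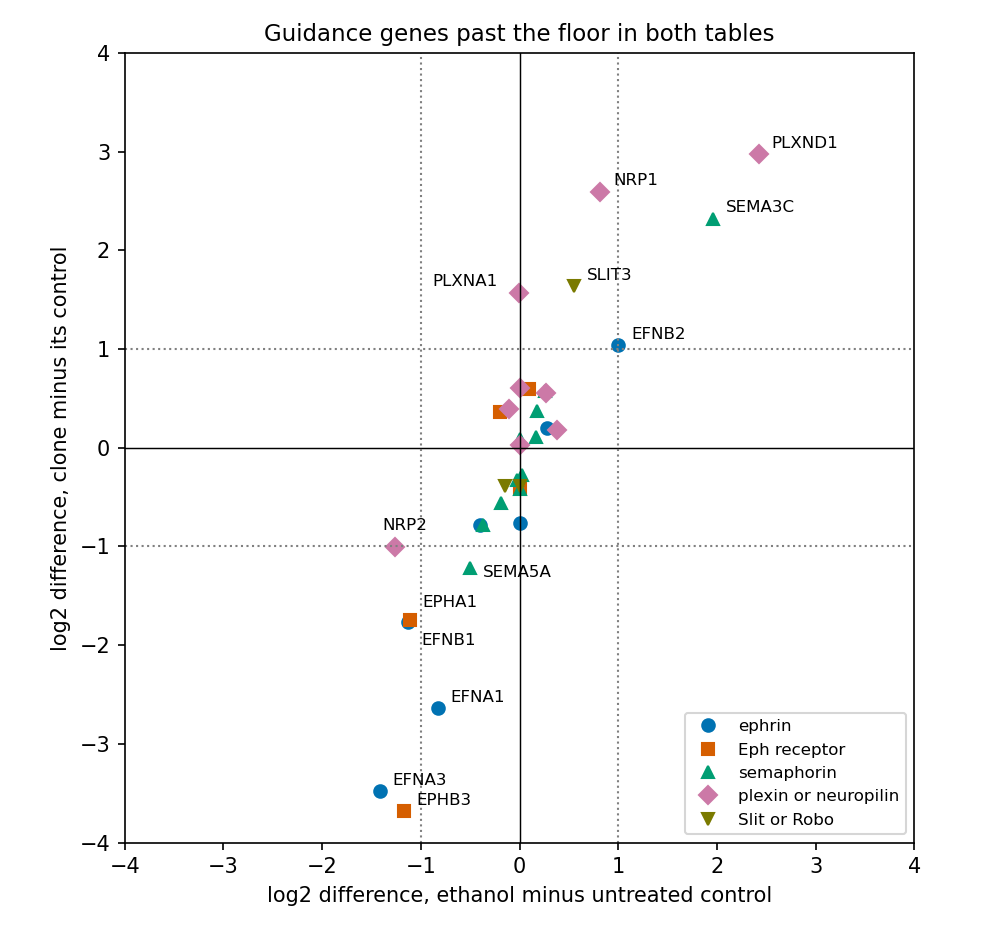
Log2 difference in ethanol (horizontal axis) against log2 difference in the clone (vertical axis) for the 35 guidance genes past the floor in both tables, 1 point per gene, with dotted lines at 2-fold and the 13 genes past 2-fold in any comparison named. PLXND1 and SEMA3C lie at the upper right with 2.43 and 1.96 in ethanol, and EFNA3 and EPHB3 at the lower left with -1.41 and -1.18.

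The acetaldehyde culture was also set against the ethanol culture, although the labelled doses are unlike, 1% and 2.5%. The 8 guidance genes past 2-fold in ethanol all had their acetaldehyde value between the untreated culture and ethanol, as did 90.9% of the 573 genes past 2-fold in ethanol, so this is no feature of the guidance genes. The guidance genes at least 2-fold higher in acetaldehyde than in ethanol numbered 4 of 37, where 1.89% of all genes were, and 1 was at least 2-fold lower, against 0.523%. The higher ones were EFNA3, NRP2, EPHB3 and EPHA1, with log2 differences of 1.39, 1.10, 1.06 and 1.06, and they stood near control in acetaldehyde. SEMA3C was lower, at -1.07. With 16 added to every intensity EPHB3 and EPHA1 no longer passed 2-fold here. All comparisons within the first table share arrays.

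Genes that act with these families were taken from a list of transducers, co-receptors and the netrin and RGM branches. Of 50 such genes past the floor in the first table, 3 passed 2-fold upward in ethanol and 3 downward, or 12.0% in either direction beside 5.08% of all genes. In acetaldehyde 1 was higher and 0 lower, beside 1.04% and 0.0532% of all genes. In the clone 13 of 59 were higher and 2 lower, or 25.4% in either direction beside 20.6% of all genes, and the median over the list was 0.05 on the log2 scale. CHN1, a Rac inhibitor downstream of EphA receptors, read 207, 784 and 557 in the first table and 352 and 1257 in the second. It was 3.78-fold higher in ethanol, 2.68-fold in acetaldehyde and 3.57-fold in the clone. DPYSL2, a cytoskeletal mediator of class 3 semaphorins, read 510, 1163 and 765, then 272 and 1621, 2.28-fold higher in ethanol and 5.96-fold in the clone. FYN, a kinase used by plexins and Ephs, read 58.5, 150 and 103, then 59.9 and 180, at least 2.13-fold higher in ethanol and at least 1.95-fold in the clone against the floor.

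Of the 6 netrin receptor genes on that list, UNC5B and NEO1 were past the floor in the first table. Both were at least 2-fold lower in ethanol, where 2.46% of all genes past the floor were. In the second table UNC5A and UNC5C were past the floor as well, and both stayed within 2-fold in the clone. UNC5C had a log2 difference of 0.86 there, from a control value under the floor, and UNC5A had -0.28. UNC5B, a repulsive netrin receptor, read 485, 133 and 339 in the first table and 721 and 270.0 in the second, 3.64-fold lower in ethanol and 2.67-fold lower in the clone. NEO1, which encodes neogenin, a receptor of RGM proteins and netrins, read 362, 89.7 and 236, then 443 and 297, 4.04-fold lower in ethanol and with a log2 difference of -0.57 in the clone. SRGAP1, which binds Robo receptors, read 284, 360.1 and 250, then 112 and 727, 6.50-fold higher in the clone and with 0.34 in ethanol. TIAM1, a Rac activator that binds ephrins and Ephs, read 181, 118 and 153, then 184 and 85.2, which is under the floor, at least 1.996-fold lower in the clone. KDR, a VEGF receptor that pairs with NRP1, was named after its values were seen: it read 39.0 on all 3 arrays of the first table and 69.3 and 275 in the second, at least 2.99-fold higher in the clone.

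Since several of these genes are known from vessels, nerves and stroma, markers of such cells were read beside them. Of 9 endothelial markers 8 lay under the floor in both tables, among them PECAM1 and CDH5, and their summed intensity was 364 to 374 in the first table, and 670 in the clone's control and 546 in the clone. Of 7 measured nerve and Schwann cell markers 3 were past the first floor and 4 past the second, and the sums were 417 to 436, then 630 and 565. In the clone 1 of the 4, SYT1, passed 2-fold upward as deposited, where 14.7% of all genes did. It read 40.3 in the control, under the floor, and 103 in the clone, at least 1.12-fold higher against the floor. SOX10, listed here as a Schwann cell marker though not limited to such cells, read 64.6 on all 3 arrays of the first table. It read 203 and 142 in the second, past the floor. Of 6 measured leukocyte markers 2 were past the first floor and 1 past the second, with sums of 290 to 312, then 366 and 338, and PTPRC was under the floor on every array. Fibroblast markers differed with the clone: 4 of 6 past the floor were at least 2-fold higher, where 14.7% of all genes were, and 0 lower, and the sum over 8 went from 882 to 2169. Among the untreated, ethanol and acetaldehyde arrays 5 of those 8 were past the floor. Of these 1, DCN, passed 2-fold upward as deposited in ethanol and in acetaldehyde, where 2.63% and 1.04% of all genes did. Its log2 differences were 1.49 and 1.64, but its untreated value of 31.4 lay under the floor. Set against the floor, DCN was at least 1.25-fold higher in ethanol, 1.40-fold in acetaldehyde and 1.81-fold in the clone. The sum over the list was 523 in the untreated culture, 609 in ethanol and 618 in acetaldehyde. The sum over 8 measured epithelial markers was 14648 in the untreated culture, 9477 in ethanol and 14713 in acetaldehyde, and went from 26573 to 11144 in the clone. These sums are led by KRT5, and the list was not uniform. In ethanol 5 of 8 passed 2-fold downward and in the clone 6 of 8, against 2.46% and 5.84% of all genes past the floor. KRT8, by contrast, was 2.08-fold higher in ethanol, and KRT18 had log2 differences of 0.03 in ethanol and 0.20 in the clone. The part of either marker list in the guidance gene differences was not tested.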

How the data were processed

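Total RNA of 5 MCF12A cultures, 1 per group, was read on Affymetrix Gene ST arrays. What the authors deposited is intensities on a linear scale, made with RMA per the submitters' processing notes, with the version not given in the sources used here. The labels' protocols assign one array design to 1-week and another to 4-week exposures, yet the clone, labelled with 4 weeks, does not share the design of the other 4-week arrays. Those 1-week and the microRNA measurements were not used here.

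Probes with exactly 1 symbol in the platform annotation were used, 19181 for the first table and 19460 for the second, and a gene was taken from its brightest probe by table mean. Log2 differences were taken within a table from the deposited values. A gene entered the counts where its highest array reached the table median, and 2-fold or more was counted. Where the dimmer array lay under that floor, the brighter value over the floor gives a lower bound, written as at least that fold. Equal values are those within 1e-06 on the log2 scale. No test was run. The calculations were tested on simulated data. They ran in Python 3.11.15 with numpy 2.4.6 and pandas 2.3.3. Promoter windows came from RefSeq, GRCh38.p14.

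The members and lists were chosen with earlier results of these data known. Genes named with all values are the guidance genes past 2-fold in any comparison, the 3 brightest others of each family past the floor in both tables, and partner genes past 2-fold the same way in ethanol and the clone or the 2 furthest each way in each comparison with a control. Marker lists are given by counts, with some of their genes by name. Alternatives covered the floor, the fold, centring, normalisation, the choice of probe and an added constant.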

Additional observations from a re-analysis of the deposited data

How the results depend on the processing

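Counts and medians over the guidance genes were recomputed under 8 alternatives, and 83 of 92 such values were unmoved, meaning within 1.5 times for a count and within 0.1 for a log2 median. At 1.5-fold in place of 2-fold, the guidance genes counted as higher were 5 of 37 in ethanol and 2 of 37 in acetaldehyde. Over all genes past the floor these shares were 5.3% and 2.21%. At that fold 4 of 37 were lower in acetaldehyde than in ethanol, against 2.21% of all genes, and 11 of 40 were lower in the clone, against 15.3%. With 16 added before log2, 2 of 37 were at least 2-fold higher in acetaldehyde than in ethanol, against 1.58% of all genes. The clone's median was -0.12 with no floor, where all genes had -0.14, and 0.092 with the floor at the 60th percentile, where all genes had 0.04. With differences centred on the median over all probes, which was -0.17, it was -0.075, beside 0.15 for all genes. With the probes of a gene averaged it was -0.09, beside -0.02. Its sign and its place beside all genes thus depend on the floor. For single genes past 2-fold, 156 of 189 recomputed log2 differences moved by less than 0.1 and 0 changed sign. EPHA1 no longer passed 2-fold in ethanol with 16 added, and SEMA5A no longer did in the clone with dim values raised to the floor. With the floor at the 60th percentile the fold of SEMA5A was unaltered, and the gene fell under that floor. No paired analysis was possible because each group has 1 array.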
